A study of Rattus norvegicus with 4 samples.

Results

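The genes described here are 57 solute carriers of the rat distal colon that move sugars, metals, phosphate, carboxylates, vitamins, fatty acids, choline, nucleosides, peptides, amino acids, nucleotide sugars and organic ions. They were taken from 131 carrier genes of 29 families that each had a row of their own on the array, among 19403 rows in all. Those kept had a mean level over the 4 arrays of 3 or more on the log2 scale, so that their level chose them and is given as a description. The mean was taken over both groups, the aldosterone arrays included. The other 74 carriers of these families lay below that level. Of the 57, Slc39a2 had a vehicle mean below 3 and Slc39a6 an aldosterone mean below 3, so that each was kept through the group where it stood higher.

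The study compared surface colonocytes, which line the lumen of the colon and absorb salt and water, from 2 rats given aldosterone and 2 rats given vehicle. All were Wistar rats aged 12 weeks whose adrenal glands had been removed on both sides, which takes away the main source of aldosterone, and they drank 0.9% NaCl for the 4 days before use. The aldosterone rats received 50 µg per 100 g body weight under the skin and a minipump set to 10 µg per kg and hour, the vehicle rats received the injection vehicle and a pump of its solvent, PEG300, and both groups were used after 2 h. The cells were then shaken off the everted colon for 40 min, with 100 nM aldosterone in the solution for the aldosterone group and vehicle for the other. Each rat gave 1 Affymetrix exon array. The control rats lacked their adrenals as well, so the comparison is of adrenal loss followed by aldosterone with adrenal loss alone.

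Solute carriers are membrane proteins that carry small molecules down a gradient or couple their passage to sodium or protons. In the colonocyte, carriers of the luminal membrane take up what bacteria and the diet leave, carriers of the basolateral membrane pass it to the blood or bring in glucose, and carriers of the Golgi, the endoplasmic reticulum and lysosomes supply those compartments. Aldosterone acts through the mineralocorticoid receptor, a transcription factor, and is best known in this tissue for sodium absorption.

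Levels below are log2 values of 1 array row per gene, and differences are aldosterone minus vehicle. Because probes differ in brightness, levels are compared between rats and never between genes. Across the array, 65% of rows had a mean below 3, and the median of row means was 2.35, close to the floor. Of 7 measured surface colonocyte markers all had a mean above 3, and 6 were higher in the aldosterone rats, with Slc26a3, the luminal chloride exchanger, at 12.75 and 12.61 against 11.96 and 12.30. The list means ran from 11.18 to 11.27 in vehicle rats and from 11.37 to 11.44 in aldosterone rats. Crypt, enteroendocrine, lymphocyte, smooth muscle, fibroblast, endothelial and neural lists had no measured marker at a mean of 3 or more, and no red cell marker was measured. Of 3 tuft cell markers 2 lay above 3, with Dclk1 at 3.30 to 3.59. Of 4 macrophage markers, Cd68, Csf1r and Adgre1 lay below 2.35 and Cd14 lay at 10.86 to 11.33. Of 3 measured goblet markers 2 were higher on average in aldosterone rats and 1 lower. The lower one, Tff3, was at 9.44 in aldosterone rat 1 and between 10.74 and 11.30 in the others. Agr2 was at 7.89 and 7.91 in vehicle rats and 7.69 and 8.52 in aldosterone rats. Spink4 lay near the floor at a mean of 1.88. The part of these markers in the carrier values was not tested. In a bulk sample of this kind, fewer cells of a type and less RNA per cell cannot be told apart. Known aldosterone targets, 7 genes with Sgk1 and Scnn1g among them, were looked up beside the labels. They were listed with earlier results of these data known, so they are no independent check of the labels. All 7 were higher in both aldosterone rats than in either vehicle rat. That held for 16.7% of all rows and 14.1% of rows with a mean of 3 or more. For these targets limma called none with a constant prior variance. With a prior variance that followed level it called 5, namely Scnn1g, Sgk1, Fkbp5, Tsc22d3 and Hif3a, with an adjusted p of 0.0104 or less.

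The promoters of 4 genes are shown, picked from the 5 members with the largest differences, with 1 higher and 3 lower in the aldosterone rats. The other of the 5, Slc39a2 with a difference of 0.89, is not shown. Each promoter shown is the 250 bases before the start of transcription, read 5′ to 3′ on the gene's strand. It comes from RefSeq's promoters of the GRCr8 rat assembly. Capitals mark matches on either strand to TGTTCT, a hexamer bound by steroid receptors, to TGCACNC or TGCGCNC, the core of metal response elements, or to TATAA. The Slc13a2 window lies at chr10:63817185-63817434 on the minus strand, that of Slc17a4 at chr17:41635173-41635422 on the plus strand, that of Slc40a1 at chr9:55543461-55543710 on the minus strand, and that of Slc39a11 at chr10:99110457-99110706 on the minus strand.
Slc13a2: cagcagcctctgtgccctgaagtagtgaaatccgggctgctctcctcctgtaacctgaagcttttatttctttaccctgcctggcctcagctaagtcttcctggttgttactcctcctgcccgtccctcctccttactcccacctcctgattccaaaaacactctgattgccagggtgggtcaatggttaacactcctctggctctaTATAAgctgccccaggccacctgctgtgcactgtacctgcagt
Slc17a4: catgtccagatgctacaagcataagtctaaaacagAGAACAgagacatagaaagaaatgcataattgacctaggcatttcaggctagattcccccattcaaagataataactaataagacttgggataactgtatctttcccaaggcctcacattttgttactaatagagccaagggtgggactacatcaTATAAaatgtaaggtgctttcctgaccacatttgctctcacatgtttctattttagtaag
Slc40a1: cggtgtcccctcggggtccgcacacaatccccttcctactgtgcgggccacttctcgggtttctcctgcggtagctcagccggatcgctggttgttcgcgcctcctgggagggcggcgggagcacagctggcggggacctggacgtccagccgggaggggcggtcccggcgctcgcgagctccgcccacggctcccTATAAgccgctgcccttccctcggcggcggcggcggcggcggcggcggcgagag
Slc39a11: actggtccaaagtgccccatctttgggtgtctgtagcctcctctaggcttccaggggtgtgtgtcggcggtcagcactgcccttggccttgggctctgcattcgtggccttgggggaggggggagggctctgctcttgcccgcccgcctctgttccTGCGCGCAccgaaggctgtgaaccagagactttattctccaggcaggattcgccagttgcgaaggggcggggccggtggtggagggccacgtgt
The hexamer stood in 7 of the 52 promoter windows found for 49 of the members (13.5%) and in 17.5% of all 33469 windows. Among the 4 genes shown it occurred in Slc17a4, from 215 to 210 bases before the start. The metal response core stood in 13 of the 52 windows (25%) and in 20.6% of all. Slc39a11 held it in 2 overlapping copies between 94 and 87 bases before the start, and Slc30a1, Slc30a4, Slc30a5 and Slc39a7 were the other metal carriers with a match. TATAA was found in Slc13a2, Slc17a4 and Slc40a1, in 17.3% of the members' windows and in 24% of all. The full hormone receptor element, 2 hexamers as an inverted repeat with 3 bases between, was in 0 of the 52 windows and in 4 of all. These matches are letters in a window and were not tested as binding sites.

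The comparison asked which carriers differ in level after the hormone. No carrier passed the test: limma with Benjamini-Hochberg adjustment over all rows, at an adjusted p of 0.05, called 0 of 57 carriers and 0% of all rows. With a prior variance that followed the level of a row it again called 0 carriers, against 0.108% of all rows and 0.309% of the 6794 rows at a mean level of 3 or above. The smallest adjusted p of a carrier was 0.487, that of Slc13a2. In 20 carriers both aldosterone values lay beyond both vehicle values, 6 higher (10.5%) and 14 lower (24.6%). Over all rows these shares were 16.7% higher and 11.1% lower, and among rows at a mean level of 3 or above they were 14.1% and 17.2%. The 20 carriers are 35.1% of the members, against 27.8% of all rows and 31.2% of rows of that level in either direction. The split was 3 higher and 15 lower with arrays centred on their medians, and 8 and 12 with arrays centred on rows with a mean of 3 or more. An exact permutation test of a single gene, 2 rats against 2, gives no p below 0.333, so tests of single genes here rest on the spread that limma pools over rows.

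An unadjusted p under 0.05 was found in 10 carriers (17.5%), against 4.53% of all rows and 10.0% of rows with a mean of 3 or more. Of these 2 were higher (3.51%), against 2.19% of all rows and 4.31% of rows of that level, and 8 were lower (14.0%), against 2.34% and 5.73%. The higher ones were Slc13a2 and Slc39a2, and the lower ones Slc17a4, Slc27a1, Slc39a11, Slc40a1, Slc11a2, Slc35f6, Slc37a2 and Slc31a1. Slc39a2 reached the minimum only through the aldosterone rats, where it stood higher. Without Slc39a2 and Slc39a6 these counts were 1 higher and 8 lower. A difference of 0.5 or more in either direction was found in 10 carriers, against 5.71% of all rows and 14.4% of rows of that level. These are the same apart from Slc35f2, which is in the second set alone, and Slc37a2, which is in the first alone. The count of unadjusted p under 0.05 was 5 (8.77%) with the prior that followed level, beside 4.67% of all rows and 6.62% of those at a mean of 3 or more, and 6 without aldosterone replicate 1. Those lower numbered 5 without vehicle replicate 1 and 4 without aldosterone replicate 1, and those higher numbered 4 without vehicle replicate 2. The split was 3 higher and 4 lower with arrays centred on rows at a mean level of 3 or above. The median difference of the 57 was -0.038, against 0.024 over all rows and -0.018 over rows of a mean of 3 or more. Without aldosterone replicate 1 the median of the members was 0.036, and it was 0.012 after quantile normalization and 0.014 with the arrays centred on rows of that level, so its sign is not settled. Of the members 25 were higher and 32 lower (56.1%), against 41.7% lower among all rows and 52.8% among rows of that level. Small differences changed sign under another scaling in 11 of them, namely Slc17a5, Slc29a3, Slc30a4, Slc35a4, Slc35b1, Slc35c2, Slc35f5, Slc37a3, Slc37a4, Slc39a9 and Slc44a4, and the counts by class below shift with them. The 2 vehicle rats differed from each other by a median of 0.23 over the members and the 2 aldosterone rats by 0.26. Over rows of that level these medians were 0.30 and 0.28. The median size of the difference between group means was 0.20 over the members and 0.19 over rows of that level.

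**Figure D1:**
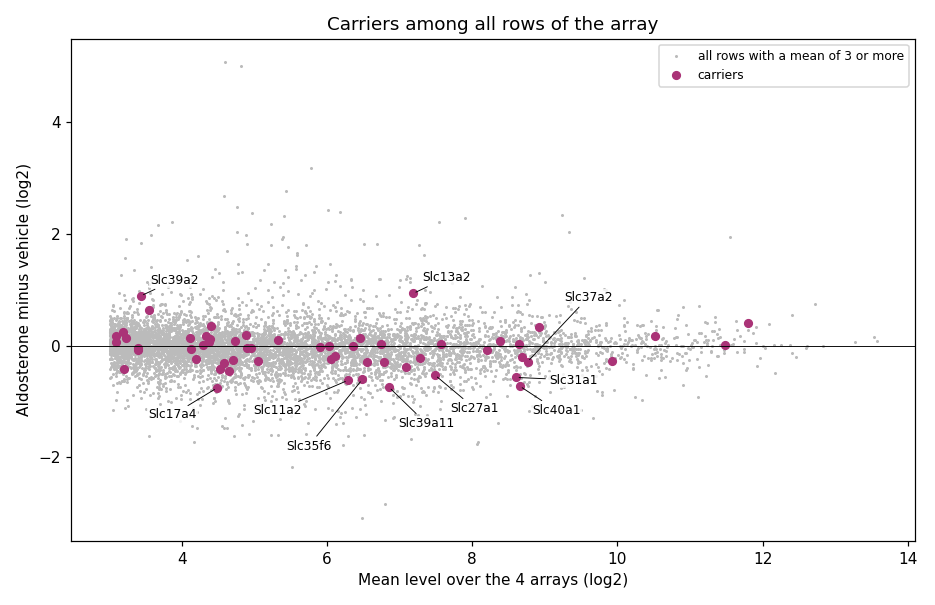
Mean level over the 4 arrays (log2, horizontal) against the aldosterone minus vehicle difference (log2, vertical) for the 6794 rows with a mean of 3 or more (grey points) and the 57 carriers (purple points). The 10 named carriers have an unadjusted p under 0.05; Slc13a2 stands highest of the carriers at 0.93 and Slc17a4 lowest at -0.76.

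**Figure D2:**
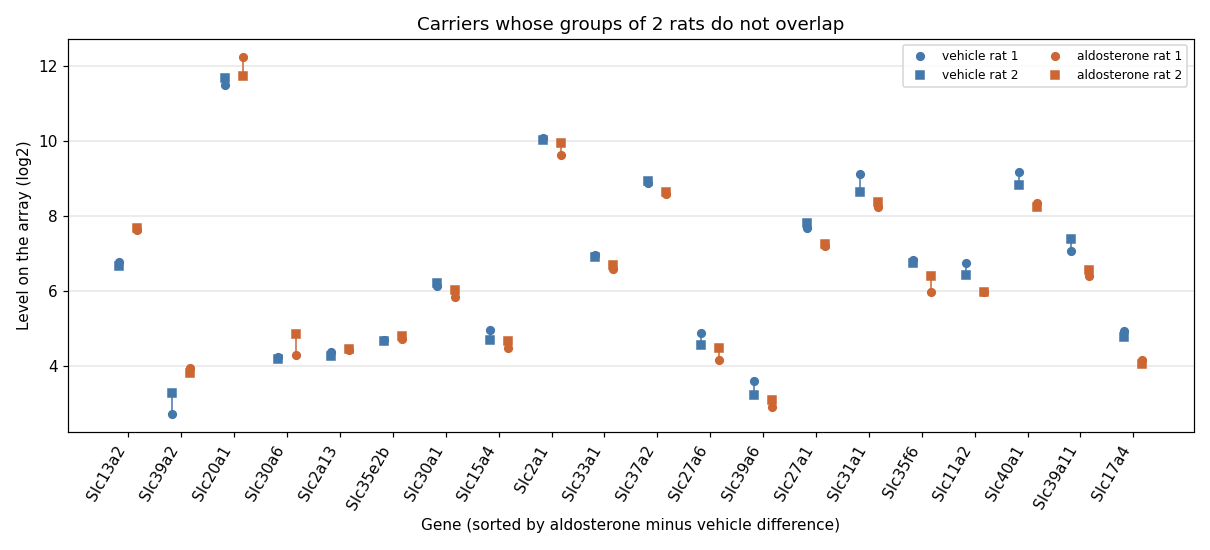
Level on the array (log2) in each of the 4 rats for the 20 carriers whose groups do not overlap, sorted by difference; blue marks are vehicle rats, orange marks aldosterone rats, and a line joins the rats of a group. In Slc13a2 the gap between groups is wide against the gap within them, while in Slc20a1 vehicle rat 2 and aldosterone rat 2 almost touch.

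Slc13a2, which encodes the sodium-dicarboxylate cotransporter NaDC1 of luminal membranes and carries citrate and succinate, stood higher in both aldosterone rats. The row (7080078) was at 6.77 and 6.66 in vehicle rats, against 7.63 and 7.67 under aldosterone. The groups lay far apart and the rats of a group close together. The difference was 0.93 (1.91-fold, 95% interval 0.65 to 1.22), with an unadjusted p of 0.000731 and an adjusted p of 0.487 in limma. Over the alternatives its adjusted p ran from 0.0547 to 1.00, and no alternative called it. It was the 1 member of its family: Slc13a1, Slc13a3, Slc13a4 and Slc13a5, relatives for sulphate, carboxylates and citrate, had means of 2.11 to 2.51.

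Slc17a4, an intestinal relative of the type I phosphate transporters that carries organic anions, was the lowest of the members by its difference. The row (7157751) was at 4.94 and 4.78 in vehicle rats and 4.17 and 4.04 in aldosterone rats. Its groups did not overlap, and the difference was -0.76 (1.69-fold lower, interval -1.09 to -0.43, adjusted p 0.711 in limma and 0.531 to 1.00 over the alternatives). Slc17a5, which encodes the lysosomal sialic acid exporter sialin, lay at 4.73 and 5.21 against 4.87 and 4.99, within its own spread. The vesicular glutamate transporter genes Slc17a6, Slc17a7 and Slc17a8 lay below 3, as did Slc32a1, the vesicular transporter of inhibitory amino acids.

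Metals formed the largest class, with 18 members of 27 measured carriers. Of the 18, none of which passed the test, 11 were lower and 7 higher in aldosterone rats, with a median difference of -0.074. The groups did not overlap in 6 that were lower and 2 that were higher, beside 17.2% and 14.1% of rows at that level. Slc39a6 among the 6 and Slc39a2 among the 2 reached the minimum only through the group where they stood higher. Iron carriers at both faces of the cell were among the lower ones. Slc11a2, which encodes the proton-coupled ferrous iron importer DMT1 (row 7331795), was at 6.76 and 6.44 in vehicle rats and 5.97 and 5.99 in aldosterone rats. Slc40a1, which encodes the iron exporter ferroportin (row 7361893), was at 9.19 and 8.84 against 8.34 and 8.24. In both genes vehicle rat 1 was the highest of the 4 and the aldosterone rats lay close together. The difference of Slc11a2 was -0.62 (1.54-fold lower, interval -1.03 to -0.22) and that of Slc40a1 was -0.73 (1.65-fold lower, interval -1.17 to -0.29). Their adjusted p was 0.860 and 0.831 in limma, with ranges over the alternatives of 0.627 to 1.00 and 0.629 to 1.00. Slc11a1, the macrophage relative of Slc11a2, lay near the floor at a mean of 2.04.

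Slc31a1, which encodes the copper importer CTR1 (row 7275723), was at 9.13 and 8.65 in vehicle rats, against 8.25 and 8.38 under aldosterone. The difference was -0.57 (1.49-fold lower, interval -1.12 to -0.02, adjusted p 1.00 in limma and 0.735 to 1.00 over the alternatives). Vehicle rat 1 again stood above the rest. Slc31a2, its relative, lay near the floor at 1.91.

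The ZIP carriers of the Slc39 family move zinc and other divalent metals into the cytosol, and 9 of 13 were members. Slc39a11, which encodes ZIP11 (row 7084162), was at 7.06 and 7.39 in vehicle rats and 6.39 and 6.57 in aldosterone rats. Its groups were apart by more than the spread within them, with a difference of -0.75 (1.68-fold lower, interval -1.19 to -0.30, adjusted p 0.811 in limma and 0.574 to 1.00 over the alternatives). Slc39a2, which encodes the plasma membrane carrier ZIP2, ran the other way at 3.95 and 3.80 against 2.70 and 3.26. This difference of 0.89 (1.85-fold, SE 0.22, adjusted p 0.884 in limma and 0.0857 to 1.00 over the alternatives) rests on a row low in vehicle rats. Slc39a6, which encodes ZIP6, also lay low, at 3.60 and 3.22 in vehicle rats and 2.90 and 3.08 in aldosterone rats.

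Slc39a4, the main zinc importer of the gut's luminal membrane, was at 6.12 and 6.66 in vehicle rats and 6.51 and 6.53 in aldosterone rats. Its 2 aldosterone values lay between the vehicle values, and the interval of the difference was -0.45 to 0.71. Slc39a7, which releases zinc from the endoplasmic reticulum and Golgi, was at 7.56 and 7.002 against 6.74 and 7.06. Slc39a3 was at 4.63 and 5.14 against 3.92 and 4.92, with an interval of -1.57 to 0.65. Slc39a9 was at 6.46 and 6.25 against 6.50 and 6.20, with the rats of each group further apart than the groups. Slc39a5 and Slc39a8 had means of 3.08 and 3.39 and differences of 0.071 and -0.087.

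The ZnT carriers of the Slc30 family move zinc out of the cytosol, and 6 of 9 were members, 4 higher and 2 lower. Slc30a1, the zinc exporter of the plasma membrane, was at 6.14 and 6.20 in vehicle rats and 5.84 and 6.02 in aldosterone rats. The groups did not overlap, but the interval of its difference of -0.24 ran from -0.56 to 0.08. Slc30a6, a zinc carrier of the Golgi, was at 4.25 and 4.20 against 4.29 and 4.86, and the distance between groups came from aldosterone rat 2. Its partner Slc30a5 was at 4.47 and 3.85 against 4.00 and 4.19. Slc30a4 was at 7.79 and 7.31 against 7.94 and 7.22, where the rats numbered 1 were higher in each group. Slc30a7 and Slc30a9 had differences of 0.094 and 0.20, each within the spread of the vehicle rats.

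**Figure D3:**
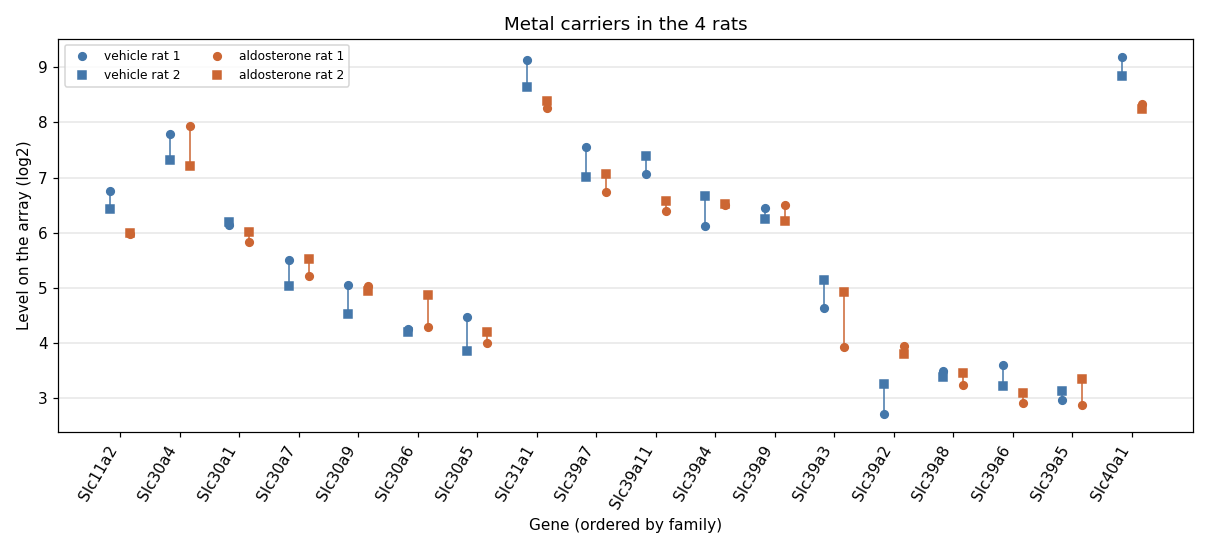
Level on the array (log2) of the 18 metal carriers in each rat, ordered by family; blue marks are vehicle rats, orange marks aldosterone rats, and a line joins the rats of a group. The aldosterone rats lie below both vehicle rats in Slc11a2, Slc30a1, Slc31a1, Slc39a11, Slc39a6 and Slc40a1, and above both in Slc30a6 and Slc39a2.

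Other genes of metal handling, from lists written from general knowledge, gave no separation. Of 10 measured genes of iron and haem handling, 6 were higher and 4 lower, and in 0 did the groups lie apart. The share apart in either direction was 27.8% of all rows and 31.2% of rows with a mean of 3 or more. Heph, the ferroxidase that works beside ferroportin, was at 8.89 and 9.08 in vehicle rats and 9.32 and 8.93 in aldosterone rats. Ireb2, an iron sensor that binds iron response elements, was at 6.11 and 5.86 against 6.13 and 5.46. Pcbp2, an iron chaperone gene, lay near the floor in 3 rats. Of 7 measured genes of zinc and copper handling, 1 was higher and 6 lower, in 0 did the groups lie apart, and the median difference was -0.15. The examples with the smallest p were Sod1, Cox17 and Steap3, with differences of 0.43, -0.19 and -0.17.

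Sugar carriers had 8 members of 17 measured, 4 higher and 4 lower, with a median difference of 0.017 and none past the adjusted threshold. Slc2a1, which encodes the basolateral glucose transporter GLUT1 (row 7279020), was at 10.08 and 10.03 in vehicle rats and 9.62 and 9.96 in aldosterone rats. Both aldosterone values lay below the vehicle values, rat 2 by little, and the difference of -0.27 had an interval of -0.69 to 0.15. Slc2a13, the proton-myo-inositol cotransporter, was at 4.37 and 4.27 against 4.43 and 4.45. Slc2a9, a urate carrier, was at 4.17 and 4.51 against 4.31 and 4.49, and Slc2a8, an intracellular glucose carrier, at 2.79 and 3.22 against 3.03 and 3.33. The fructose carrier Slc2a5, the glucose carrier Slc2a2 of the small intestine and liver and the insulin-regulated Slc2a4 had means of 2.38, 2.76 and 2.47.

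The Slc37 family includes exchangers of sugar phosphates for phosphate across the endoplasmic reticulum, and all 4 of its measured genes were members. Slc37a2 (row 7344183) was at 8.89 and 8.93 in vehicle rats and 8.59 and 8.64 in aldosterone rats. The rats of each group lay within 0.053 of each other, and the difference of -0.29 (1.22-fold lower, interval -0.56 to -0.02) had an adjusted p of 1.00 in limma and of 0.749 to 1.00 over the alternatives. Slc37a1 was at 8.13 and 8.55 against 8.31 and 8.54, and Slc37a3 at 6.05 and 5.77 against 5.63 and 6.14. Slc37a4, the glucose 6-phosphate carrier, was at 4.94 and 4.90 against 4.70 and 5.05, so that in these 3 genes the groups overlapped. Slc45a1 and Slc45a2 lay below 3. Of 9 measured genes of sugar uptake and glycolysis 2 were higher and 7 lower, and in 4 of the lower ones the groups lay apart, beside 11.1% of all rows and 17.2% of rows at a mean of 3 or above. G6pc3, a glucose 6-phosphatase that works with Slc37a4, was at 4.73 and 5.01 against 4.29 and 4.35. The pyruvate kinase gene Pkm was at 5.28 and 5.52 against 4.67 and 3.67. Both were named for the smallest unadjusted p of their list, and their adjusted p in limma was 0.884 and 0.993.

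Slc20a1 was the 1 phosphate carrier kept. It encodes the sodium-phosphate cotransporter PiT1, and its row (7232493) was at 11.51 and 11.69 in vehicle rats and 12.26 and 11.74 in aldosterone rats. Aldosterone rat 1 stood apart and aldosterone rat 2 lay just above vehicle rat 2. The difference was 0.40 (1.32-fold, interval -0.19 to 0.98). Slc34a1, Slc34a2 and Slc34a3, the type II sodium-phosphate cotransporters of kidney and gut, had means of 2.39, 2.17 and 2.27. Of 8 measured genes of phosphate handling 3 were higher and 5 lower. The phosphate exporter gene Xpr1 was at 3.79 and 3.40 against 3.37 and 3.16, and Nherf1, a scaffold of luminal transporters, at 10.95 and 10.83 against 10.82 and 10.68. 

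Fatty acid transport proteins of the Slc27 family take up long-chain fatty acids and activate them with coenzyme A. The 3 members of 6 measured were all lower in aldosterone rats, with a median difference of -0.41. Slc27a1 (row 7144075) was at 7.67 and 7.83 in vehicle rats and 7.19 and 7.25 in aldosterone rats. Its difference was -0.53 (1.44-fold lower, interval -0.84 to -0.22, adjusted p 0.805 in limma and 0.641 to 1.00 over the alternatives). Slc27a6 was at 4.88 and 4.57 against 4.16 and 4.47, and its interval of -0.91 to 0.08 included no difference. Slc27a4, the main form of the intestine, was at 5.27 and 5.10 against 5.25 and 4.55, with aldosterone rat 2 alone below the rest. Of 9 measured genes of fatty acid activation 4 were higher and 5 lower. Cpt1a, which admits fatty acids to mitochondria, was at 8.82 and 8.74 against 8.10 and 8.25. Fabp2, a fatty acid binding protein gene, was at 3.65 and 3.77 against 4.25 and 4.74. Their adjusted p in limma was 0.757 and 0.891. 

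The class of nucleotide sugar and acetyl-CoA carriers had 12 members of 17 measured, 6 higher and 6 lower, with a median difference of 0.010. Such carriers feed glycosylation and acetylation in the Golgi and endoplasmic reticulum. The class was drawn as the whole Slc33 and Slc35 families, so it also holds orphans and carriers of other membranes. Slc35f6, a carrier of lysosomal and mitochondrial membranes (row 7304019), was at 6.83 and 6.74 in vehicle rats and 5.96 and 6.40 in aldosterone rats. Its difference was -0.61 (1.52-fold lower, interval -1.11 to -0.11, adjusted p 0.980 in limma and 0.708 to 1.00 over the alternatives). Slc33a1, the acetyl-CoA transporter, was at 6.96 and 6.90 against 6.58 and 6.69, with an interval from -0.57 to just above 0. Slc35e2b, an orphan carrier, was at 4.70 and 4.68 against 4.72 and 4.81, apart by a difference of 0.075.

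The other 9 of this class overlapped between groups. Slc35a3, which carries UDP-N-acetylglucosamine, was at 8.27 and 8.23 in vehicle rats and 8.48 and 7.86 in aldosterone rats, which lay on both sides of the vehicle values. Slc35f5 was at 8.72 and 8.55 against 8.86 and 8.46, and Slc35b1, a carrier of the endoplasmic reticulum, at 6.68 and 6.77 against 6.62 and 6.88. Slc35e1 was at 7.20 in vehicle rat 1 and between 6.19 and 6.45 in the others. Slc35f2 had the widest spread of all members, at 2.23 and 4.22 in vehicle rats and 3.09 and 4.63 in aldosterone rats, and the rat numbered 2 was higher in each group. The interval of its difference ran from -1.79 to 3.06. The differences of Slc35a4, Slc35c2, Slc35a5 and Slc35e4 were -0.0084, -0.039, 0.14 and 0.18. Of 8 measured genes that make nucleotide sugars, 4 were higher and 4 lower. Uap1, of UDP-N-acetylglucosamine synthesis, was at 8.36 and 8.24 against 8.22 and 7.87.

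Choline carriers had 3 members of 4 measured and stood within the spread of the rats. Slc44a4, which colonocytes use for thiamine pyrophosphate made by bacteria (row 7220663), was at 11.57 and 11.38 in vehicle rats and 11.45 and 11.53 in aldosterone rats. The interval of its difference of 0.011, from -0.32 to 0.34, was among the narrower ones and held no change of more than 0.34 in either direction. Slc44a1, the general choline carrier, was at 10.51 and 10.37 against 10.81 and 10.41, and Slc44a3 at 2.87 and 3.25 against 3.36 and 3.25. Of 6 measured genes of choline use 2 were higher and 4 lower. Pcyt2, of phosphatidylethanolamine synthesis, was at 6.98 and 7.26 against 6.86 and 6.67.

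Vitamin carriers had 3 members of 7 measured, 1 higher and 2 lower. Slc46a1, the proton-coupled folate carrier (row 7069943), was at 8.93 and 8.57 in vehicle rats and 8.91 and 9.24 in aldosterone rats, and aldosterone rat 2 alone stood above the vehicle range. Slc19a1, the reduced folate carrier, was at 4.75 and 4.72 against 4.05 and 4.79, with aldosterone rat 1 alone below it. The intervals of the differences were -0.21 to 0.87 and -1.08 to 0.44. Slc23a2, an ascorbate carrier, was at 6.30 and 6.11 against 5.91 and 6.13. Slc23a1, the ascorbate carrier of luminal membranes, and Slc19a3, a thiamine carrier, had means of 2.57 and 2.54. Of 6 measured genes of vitamin uptake and use 3 were higher and 3 lower. Slc5a6, the biotin and pantothenate carrier, was at 7.96 and 7.99 against 7.16 and 7.84. 

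Carriers of amino acids, peptides, nucleosides, bile acids and organic ions had few members. Slc36a1, a proton-coupled amino acid carrier of lysosomes and luminal membranes, was at 8.64 and 8.92 in vehicle rats and 8.39 and 8.76 in aldosterone rats, and Slc36a4 at 3.90 and 4.18 against 4.01 and 4.36. Slc15a4, a lysosomal carrier of histidine and small peptides, was at 4.95 and 4.69 against 4.48 and 4.66, just apart, with a difference of -0.25 (interval -0.65 to 0.14). Slc29a3, the lysosomal nucleoside carrier, was at 4.14 and 4.45 against 4.24 and 4.35, with an interval of -0.41 to 0.42. Slc22a18, an orphan relative of the organic cation carriers, was at 7.28 and 7.505 against 6.82 and 7.53. Slc10a3, an orphan of the bile acid carrier family, was at 4.55 and 4.07 against 4.15 and 4.00.

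In these classes most relatives lay below 3. Of 12 measured Slc22 carriers of organic cations and anions 11 were below it, as were 4 of 5 of the Slc10 family, with the ileal bile acid carrier Slc10a2 at a mean of 1.82. The concentrative nucleoside carriers Slc28a1, Slc28a2 and Slc28a3 had means of 2.12, 1.96 and 2.29, and Slc29a1, the main equilibrative one, 2.60. The drug exporter Slc47a1 was at 2.19, and all 4 measured Slc24 exchangers of sodium, calcium and potassium lay below 3. These rows below 3 do not show that the genes are silent. Of 10 measured genes of drug and organic ion efflux 5 were higher and 5 lower. The bile acid and conjugate exporter gene Abcc3 was at 9.63 and 9.84 against 9.24 and 9.34, Slco4a1 at 3.81 and 3.74 against 3.30 and 3.16, and Slco2b1 at 2.91 and 3.17 against 3.69 and 3.48. Of 11 measured genes of nucleoside salvage 5 were higher and 6 lower. Adenosine deaminase, Ada, was at 4.41 and 5.12 against 7.25 and 5.53. Xdh was at 2.98 and 2.76 against 2.42 and 2.52, and Nt5e at 2.48 and 2.68 against 2.17 and 2.31. Limma with a constant prior variance called none of these genes of efflux and salvage.

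**Figure D4:**
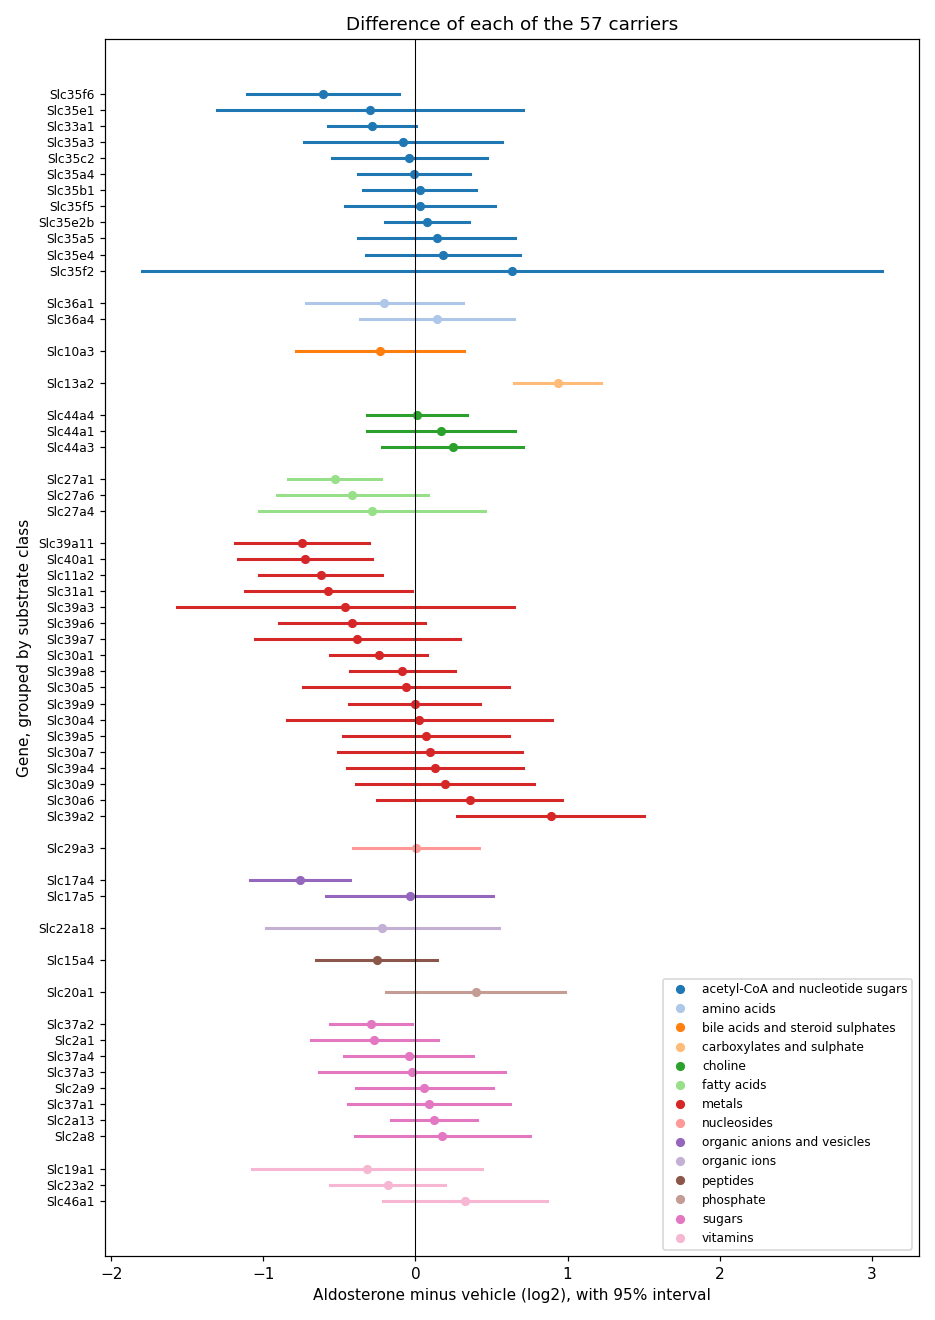
Aldosterone minus vehicle difference (log2, horizontal) of each of the 57 carriers, with its 95% interval from limma, grouped and coloured by substrate class. Intervals that leave out 0 are those of Slc13a2 and Slc39a2 to the right and of 8 carriers to the left, 4 of them for metals; that of Slc35f2, from -1.79 to 3.06, is the widest.

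The minimum level of 3 lay among carriers of like values. Just inside it were Slc39a5, Slc2a8, Slc44a3, Slc39a6 and Slc35a5, with means of 3.08, 3.09, 3.18, 3.20 and 3.23. Just outside were Slc39a14, which carries zinc and iron, Slc22a17, Slc43a2, an amino acid carrier, Slc35g2 and Slc30a3, with means of 2.98, 2.95, 2.90, 2.86 and 2.81. Among the 74 carriers below the minimum, Slc35g2, at 2.76 and 2.66 in vehicle rats and 3.04 and 2.995 in aldosterone rats, was the 1 with an unadjusted p under 0.05, at 0.0381 in limma and an adjusted p of 1.00.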

How the data were processed

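The deposited values are log2 expression values, 1 per array row and rat. The tools named per the submitters' processing notes are Partek, RMA and Affymetrix Expression Console. Versions and roles were not given in the sources used here. The genome build of the rows is also not given. That the authors' values are log2 was read from their range, 1.36 to 13.7. RMA draws the arrays' distributions together, so that a change common to most genes would be lessened. The deposited arrays still had medians of 2.22 and 2.43 in vehicle rats and 2.33 and 2.44 in aldosterone rats. The mean of these medians was 0.058 higher in the aldosterone group. Rows were named by the platform annotation. Of 19403 rows, 13327 carried 1 symbol, 620 several and 5456 none. All 57 members matched RefSeq by Entrez ID.

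The fit was limma 3.58.1 in R 4.3.3 (lmFit, eBayes, two-sided), over all rows, with treatment as the only term. Each group had 2 rats, so the number of arrays limits the precision. Figures were drawn in matplotlib 3.10.9 and tables in pandas 2.3.3, under Python 3.11.15. The fit was also run on simulated data, in which the planted differences were larger than that of any carrier here. That run does not show how well differences of the carriers' size are found.

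Members and gene lists were chosen with earlier results of these data known. Values are printed for the member with the highest mean in each family and members with an unadjusted p under 0.05. Also printed are up to 10 per direction with groups apart, 5 on each side of the minimum and carriers fixed by name. Genes from the lists of metal handling, glycolysis and other pathways were up to 3 per list, those with the smallest unadjusted p in limma. The remaining members were added after their values were seen. Of the carriers fixed by name, Slc22a5 and Slc35a1 lay on rows of several genes and were not used. Slc15a1, Slc30a10, Slc48a1 and Slc50a1 had no row naming them alone and were not assessed.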

Additional observations from a re-analysis of the deposited data

How the results depend on the processing

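No alternative called any of the 57 carriers. Over all rows the calls of limma at an adjusted p of 0.05 were 0, 1 with rows below the median left out, 21 with a prior that followed level and 192 with arrays centred on rows with a mean of 3 or more. That centring, and the counts without Slc39a2 and Slc39a6, were chosen after seeing the data. Carriers with an unadjusted p under 0.05 numbered 10, and 5 with the level-dependent prior or with no moderation. Those higher numbered 2, and 1 with no moderation, with members of a mean of 4 or more, or without Slc39a2 and Slc39a6. Those lower numbered 8, 3 with the level-dependent prior and 4 with no moderation or with the added centring. Carriers with groups apart and higher numbered 6, and 3 with median centring. Leaving out 1 rat at a time gave 6 to 14 carriers with an unadjusted p under 0.05, 2 to 4 higher and 4 to 10 lower. It gave 13 to 20 with groups apart and higher and 21 to 26 lower, since 1 rat against 2 separates more easily, and a median difference of -0.14 to 0.036. The lone rat is assumed to vary like the other group. No gene had several rows, so averaging rows gave the same values.

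Rats of the same number share a replicate label, which does not say whether they were handled together. Their deviations correlated at 0.093. Whether they had a day or batch in common was not tested. With the replicate block all-row calls were 0, and 3 carriers higher and 7 lower had an unadjusted p under 0.05, beside 2 and 8.

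Differences changed sign after median centring in Slc35b1 (-0.030), Slc35f5 (-0.026), Slc44a4 (-0.047), Slc29a3 (-0.054) and Slc30a4 (-0.033). After quantile normalization they did so in Slc35a4 (0.026), Slc44a4 (-0.035), Slc37a3 (0.026), Slc39a9 (0.056), Slc37a4 (0.023) and Slc17a5 (0.020). With the added centring they did so in Slc35a4 (0.043), Slc35c2 (0.012), Slc37a3 (0.027), Slc39a9 (0.047), Slc37a4 (0.0066) and Slc17a5 (0.014). The cause was not tested. With 1 rat left out, 32 carriers changed sign, with these ranges of the difference: Slc10a3 -0.48 to 0.0086, Slc17a5 -0.28 to 0.21, Slc19a1 -0.69 to 0.050, Slc22a18 -0.58 to 0.14, Slc27a4 -0.64 to 0.067, Slc29a3 -0.15 to 0.16, Slc2a8 -0.043 to 0.40, Slc2a9 -0.11 to 0.23, Slc30a4 -0.34 to 0.39, Slc30a5 -0.37 to 0.25, Slc30a7 -0.14 to 0.33, Slc30a9 -0.075 to 0.47, Slc35a3 -0.39 to 0.23, Slc35a4 -0.14 to 0.12, Slc35a5 -0.074 to 0.35, Slc35b1 -0.10 to 0.16, Slc35c2 -0.25 to 0.17, Slc35e1 -0.80 to 0.21, Slc35e4 -0.039 to 0.40, Slc35f2 -0.36 to 1.63, Slc35f5 -0.17 to 0.23, Slc36a4 -0.034 to 0.32, Slc37a1 -0.12 to 0.30, Slc37a3 -0.27 to 0.23, Slc37a4 -0.22 to 0.13, Slc39a3 -0.96 to 0.041, Slc39a4 -0.14 to 0.40, Slc39a5 -0.17 to 0.31, Slc39a8 -0.19 to 0.017, Slc39a9 -0.15 to 0.14, Slc44a1 -0.032 to 0.37, Slc44a4 -0.084 to 0.11. The other 25 kept their direction, 20 of them by construction because their groups do not overlap. Carriers near the array's floor have differences that the dim signal limits.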
